A study of Nematostella vectensis with 136 samples.

Results

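The 100 genes described here are those whose RNA level varied least, from library to library, in the sea anemone *Nematostella vectensis*, of which whole adults were sampled under 2 light regimes at 17 time points. They were chosen by their measured spread: of the 24384 genes in the count table, 1271 had a mean of at least 100 CPM (a gene's count divided by the library's total and multiplied by 1000000), the 100 genes of highest mean were set aside, and of the remaining 1171 genes the 100 with the lowest standard deviation (SD) of log2(CPM + 2) over the libraries kept, 67 of LD and 66 of DD, became the members. In the LD arm animals had lived for 1 month under a cycle of light and dark, which was then taken away after the first day of sampling, and in the DD arm they had lived for 1 month in constant darkness and stayed in it. Sampling ran every 4 h, and each arm had 4 replicates at a time point, with the letters A to D, so that T1 to T6 preceded removal of the cycle and T7 to T17, a further 44 h, followed it. Both arms are whole animals, so fewer cells of a type and less RNA per cell cannot be told apart in any value below. How many animals made up a replicate and whether replicates were separate cultures is not stated in the labels; the p-values rest on the scatter of these libraries, which may be technical.

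Sea anemones of this species have no eyes but respond to light, and a daily cycle of light and dark entrains rhythms of activity and of gene expression in them, with cryptochromes and other genes of the circadian clock among the rhythmic genes. Genes with a steady RNA level serve a different purpose: in work that compares RNA between conditions they are the scale against which the others are read, and such reference genes are often drawn from the cell's general machinery, such as ribosomes, translation factors and the cytoskeleton. Whether the present members belong to that machinery is not reported, since the table pairs no identifier with a name and 0 of its identifiers matched the annotation at hand. The genes are therefore given by identifier, with no role and no sequence.

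The 136 libraries held 68 per arm and had a median total of 538017 counts. The rule left out LD T14 replicate D (27546 counts), DD T4 replicate B (2185) and DD T1 replicate D (140371) for their low totals, while every other library had at least 207665. The fits described further on used all 136. In LD and DD alike, lane 5 of the sequencer held T1 to T12 and lane 7 held the later time points, so lane and day cannot be told apart.

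The SD of the members' log2(CPM + 2) ran from 0.153 to 0.259, with a median of 0.232, and that of the 1071 other genes the rule could have chosen from 0.259 to 3.75, with a median of 0.431. These values chose the members and are given as a description. Just inside the limit were NVE10888, at 0.258, and NVE790, at 0.259, and just outside were NVE24947, at 0.259, and NVE7996, at 0.260, so that the limit cuts through a continuous range. The members' mean CPM ran from 120.5 to 1863, and a member's median count over the kept libraries from 64 to 1021. A mean of at least 1000 CPM was reached by 33 of the 100 members and by 42 of the 1071 other genes (3.92%). CPM are not divided by gene length, so these counts say how well a gene was measured and not which gene had more RNA molecules.

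Depth set a floor under this spread that differed between members. Counting alone, as a Poisson error at each library's depth, would give the median member an SD of 0.103, and it accounted for a median of 21.1% of the members' variance and of 9.70% of that of the other genes. NVE12727, with a mean of 122.1 CPM, had the largest such share: its SD was 0.222, of which counting would give 0.183, or 67.8% of the variance. NVE21507, with a mean of 1768 CPM, had the smallest share, 3.87%, at an SD of 0.248. A member of low count and a member of high count with the same SD thus differ in how much of it lies beyond counting. The counting error covers the sampling of reads only.

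**Figure D1:**
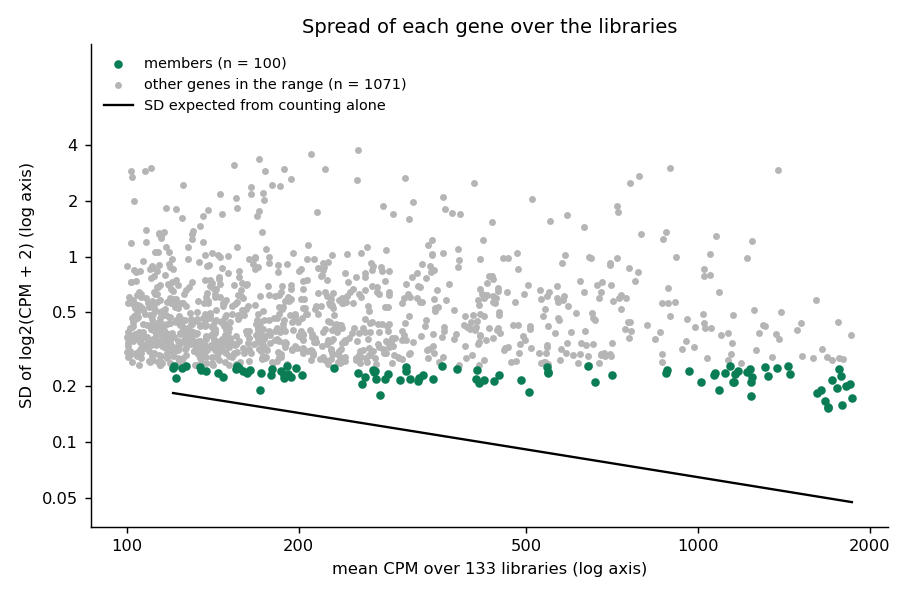
SD of log2(CPM + 2) over the kept libraries (y, log axis) against mean CPM (x, log axis) for the 100 members (green) and the 1071 other genes the rule could choose (grey). The black line is the SD expected from counting alone, which falls from 0.184 at the lowest member mean to 0.0475 at the highest; the members lie between this line and 0.259.

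The 6 genes of lowest spread were NVE11279, NVE24745, NVE10553, NVE4736, NVE13301 and NVE5287, with SDs of 0.153, 0.154, 0.159, 0.166, 0.173 and 0.177. NVE11279 had a lowest, median and highest value of 1134, 1686 and 2082 CPM over the 67 LD libraries, against 1320, 1709 and 2112 CPM over the 66 DD libraries. NVE24745 had 1278, 1728 and 2085 CPM in LD, against 1316, 1688 and 2081 CPM in DD. For both genes the ranges of the arms overlap almost fully, and their medians lie within 1 SD over libraries (179.7 CPM for NVE11279 and 176.1 CPM for NVE24745 in LD). NVE10553 had 1097, 1831 and 2132 CPM in LD, against 1364, 1796 and 2136 CPM in DD. NVE4736 had 1109, 1656 and 2047 CPM in LD, against 1060, 1686 and 2189 CPM in DD. NVE13301 had 1060, 1887 and 2353 CPM in LD, against 1209, 1905 and 2154 CPM in DD. In NVE11279, NVE10553 and NVE13301 the lowest of all values came from LD T8 replicate B. NVE5287 had 873, 1243 and 1484 CPM in LD, against 646, 1271 and 1617 CPM in DD, and its lowest value, in DD T13 replicate C, stood 0.95 below the gene's median on the log2 scale.

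**Figure D2:**
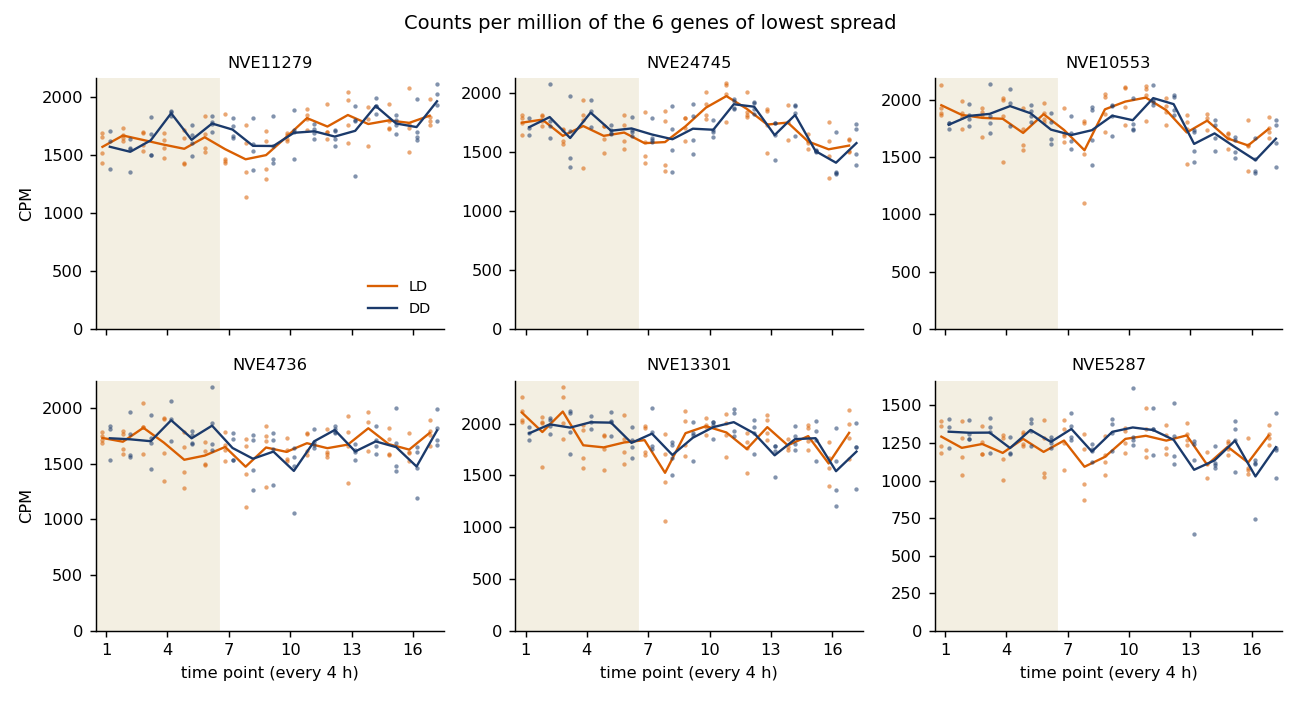
CPM of the 6 genes of lowest spread at each time point (x, every 4 h) in LD (orange) and DD (blue); points are libraries, lines the means of 3 or 4 libraries, and the shaded T1 to T6 precede removal of the light cycle. Lines of both arms stay between 1027 and 2117 CPM; LD T8 replicate B gives the low orange points of NVE11279, NVE10553 and NVE13301 and DD T13 replicate C the low blue point of NVE5287.

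Averaged over replicates, no member moved far. The 34 group means (arm by time point) of a member spanned 0.409 to 0.899 on the log2 scale, with a median span of 0.592, against a median span of 1.11 for the other genes. The highest group mean was under 2-fold the lowest in 100 of 100 members, against 423 of the 1071 other genes, and under 1.5-fold in 45 members, against 20 other genes. Within groups the SD had a median of 0.213 for the members and 0.398 for the other genes. Replicates of the same group held a median of 62.2% of a member's sum of squares and 65.4% of that of the other genes, where 75% would stand if the groups did not differ. Both the span of group means and the spread within groups are parts of the total spread that chose the members, so these values are a description.

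Departures of single libraries were few, and since they are part of the spread that chose the members, their counts are a description. In 22 of the 100 members 1 library lay more than 1 log2 unit from the gene's median, and in no member did more than 1, whereas 911 of the 1071 other genes had at least 1. Of those 22 departures 13 were in DD T13 replicate C, 6 in LD T8 replicate B, 2 in LD T11 replicate A and 1 in DD T9 replicate D. NVE15276 departed furthest, with 402 CPM in DD T13 replicate C against a median of 1129 CPM over DD libraries, a deviation of 1.51 on the log2 scale. NVE10888 followed, with 129.8 CPM in that library against a DD median of 367 CPM, a deviation of 1.46. The lowest group mean of a member fell in LD T8 for 14 members, in DD T13 for 13 and in DD T16 for 9, and the highest in LD T11 and in LD T13 for 7 each.

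Summed, the members took 6.77 ± 0.397% of a library's counts (SD over LD and DD libraries together). The share was 6.75 ± 0.434% in 67 LD libraries and 6.80 ± 0.357% in 66 DD libraries. After removal, over T7 to T17, it was 6.78 ± 0.488% in LD (n = 43) and 6.79 ± 0.396% in DD (n = 44), and before it 6.69 ± 0.320% in LD (n = 24) and 6.81 ± 0.270% in DD (n = 22). Each of these differences is smaller than the SD between libraries. The lowest share was 4.81%, in LD T8 replicate B, then 5.75% in LD T8 replicate A, while LD T8 replicates C and D had 6.78% and 6.86%. DD T13 replicate C had 5.85%, against 6.84%, 6.85% and 6.89% in its replicates A, B and D. In these 3 libraries the median member lay 0.33, 0.22 and 0.34 below its mean on the log2 scale, and in no other kept library more than 0.19 below. The gene NVE12125, which is not a member and had a median of 1.68 CPM, reached 1152 CPM in LD T8 replicate B and 1569 CPM in LD T8 replicate A and was at 0 in DD T13 replicate C. At 1002 to 1419 CPM it was also high in LD T6 B, LD T7 C, LD T9 A, C and D, and LD T14 A. There the members' shares were 6.23, 6.10, 7.01, 6.49, 6.19 and 6.86%, in that order. NVE12125 exceeded 100 CPM in 18 LD and 4 DD libraries, of which 14 LD and 1 DD belong to T7 to T17. Its part in the members' values was not tested beyond fits without those libraries, which are given where they bear on a result. The lower depth of 2 of the 3 libraries (326374 counts in LD T8 replicate B and 323477 in DD T13 replicate C) moves with their low shares. Over all kept libraries the members' median deviation correlated with the log2 total at r = 0.51. DD T9 replicate D (207665 counts) and LD T16 replicate C (213651) had shares of 5.94 and 5.98%. LD T11 replicate A (271463) had the highest share, 7.56%. The part of depth was not tested.

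**Figure D3:**
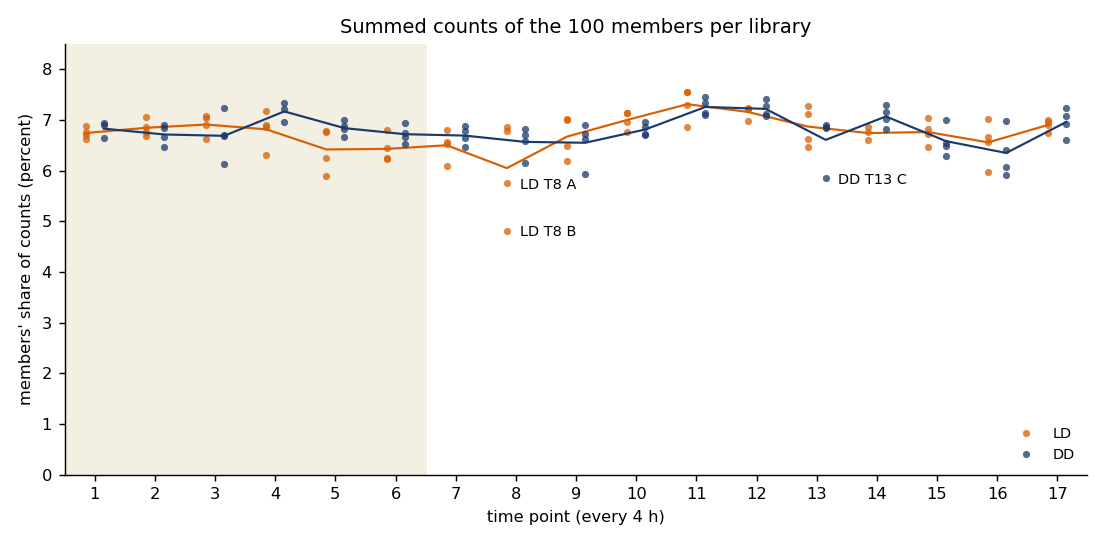
Share of a library's counts that the 100 members took together (y, percent) at each time point (x, every 4 h) in LD (orange) and DD (blue); points are libraries, lines group means, and the shaded T1 to T6 precede removal. Shares lie between 5.89 and 7.56% except in the 3 named libraries, at 4.81, 5.75 and 5.85%.

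The 3 shallow libraries did not take part in the choice and show the members at low depth. In DD T1 replicate D, 97 of the 100 members lay within 1 log2 unit of their mean over the kept libraries, with a median deviation of -0.34. In LD T14 replicate D 57 did, 4 members had no count, and the median deviation was -0.78, where counting alone would give the median member an SD of 0.436. DD T4 replicate B, with 2185 counts in all, had no count for 55 members and is too shallow to place them.

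Most pairs of members correlated weakly, which does not show that they varied independently. Over the kept libraries Pearson's r between 2 members had a median of 0.079 over all 4950 pairs, with a 5th percentile of -0.24 and a 95th of 0.44. The libraries' depth and the common total are shared by all pairs. In 20 pairs r exceeded 0.7, and these joined 17 members into a set of 13 and 2 further pairs, NVE17752 with NVE9450 and NVE19732 with NVE9857. The highest r was 0.84, between NVE24745 and NVE10602. The set of 13 held NVE24745, NVE10553 and NVE13301 of the 6 steadiest genes, and all of its genes had means of at least 642 CPM. It was chosen for its correlation, so its course is a description. As the mean deviation of its genes from their own means, on the log2 scale, the set was high at T11, with 0.20 ± 0.09 in LD and 0.23 ± 0.04 in DD, and at T12, with 0.16 ± 0.04 in LD and 0.25 ± 0.06 in DD (SD, n = 4 each). It was low at T8, with -0.26 ± 0.33 in LD and -0.12 ± 0.19 in DD, and at T16, with -0.09 ± 0.13 in LD and -0.17 ± 0.18 in DD. The arms did not run alike throughout: at T7 the set was at -0.16 ± 0.16 in LD and -0.06 ± 0.09 in DD, at T5 at -0.13 ± 0.16 in LD and -0.04 ± 0.03 in DD, and at T4 at -0.03 ± 0.19 in LD (n = 4) and 0.11 ± 0.07 in DD (n = 3). The large SD at LD T8 comes with the value of -0.69 in replicate B, the lowest of all libraries.

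Between the days, and so between the lanes, the members shifted little. Such a shift is part of the total spread that chose the members, so these values are a description. The mean on lane 7 minus the mean on lane 5 ran from -0.30 to 0.28 over the members, with a median of -0.01, and from -1.62 to 1.17 over the other genes, with a median of -0.06, all on the log2 scale. NVE21507 had the largest shift upwards, 0.24 in LD and 0.32 in DD, and NVE25836 the largest downwards, -0.24 in LD and -0.35 in DD. The shift had the same sign in both arms in 70 of the 100 members, and the shifts in LD and DD correlated with r = 0.71 over the members, which share the lanes and the libraries' totals. The median SD of the members was 0.221 on lane 5 alone and 0.233 on lane 7 alone.

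Since the rule used every kept library, the spread was also measured in libraries that did not choose. With the rule applied to replicates C and D only, its 100 genes had a median SD of 0.227 in replicates A and B, against 0.422 for the other genes there, and 95 of them were among the steadiest 25% of the 1174 genes available. With the rule applied to A and B, the median SD in C and D was 0.249, against 0.443, and 93 of the 99 genes still above the abundance limit were among the steadiest 25%. Between these choices 64 of 100 genes were shared. Genes chosen in DD had a median SD of 0.247 in LD, against 0.442 for the other genes, and genes chosen in LD a median SD of 0.233 in DD, against 0.419, with 57 of 100 genes shared. Genes chosen on lane 5 had a median SD of 0.248 on lane 7, against 0.462. A low spread was thus found again in libraries that had no part in the choice, while the genes that filled the list depended in part on the libraries.

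The bounds on the effects of light regime, removal and time of day come from 1 edgeR quasi-likelihood fit over all 10257 genes that passed its filter on low counts, which all 100 members did. Libraries were scaled there by TMM factors, so the log2 values below differ in scale from CPM on library totals. A bound is the largest size of an effect, upwards or downwards, that the 95% interval of the gene still holds. A gene was called at a Benjamini-Hochberg adjusted p under 0.05 over all tested genes. Because the members were chosen for a low spread over these same libraries, which includes each of these effects, their counts and bounds are described beside the background and nothing is read from the difference. All 8 bounds stayed under 0.5 on the log2 scale, a 1.41-fold change, in 98 of 100 members, against 337 of the 1071 other genes, and under 1 in 100 members, against 880 other genes. The exceptions at 0.5 were NVE20113, with a largest bound of 0.52, and NVE9896, with 0.50. NVE24745 had the tightest set, with no bound above 0.23.

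**Figure D4:**
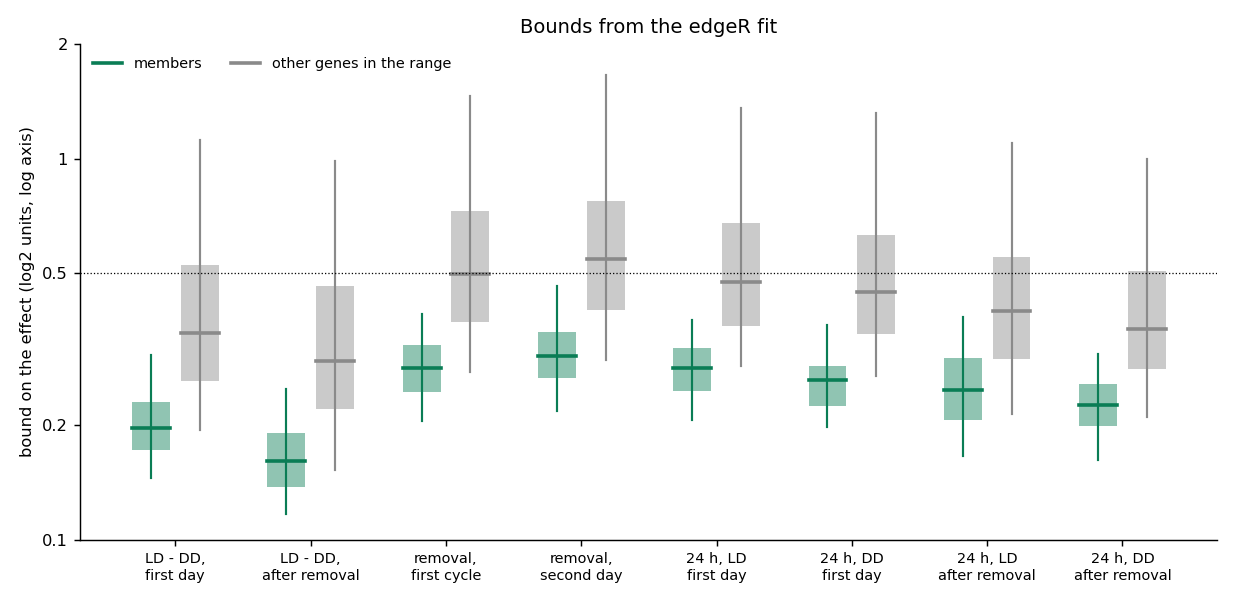
Bounds on 8 effects (y, log2 units, log axis), for the members (green, left of each pair) and the 1071 other genes the rule could choose (grey, right); the thick line is the median, the box spans the middle 50% of genes and the thin line the 5th to 95th percentile, with a dotted line at 0.5. Member medians lie between 0.161 and 0.304 and those of the other genes between 0.295 and 0.546; LD - DD is the arm difference and 24 h the amplitude of the daily component.

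Over the first day, with the cycle of light present in LD and absent in DD, no member's estimated arm difference exceeded 0.21 on the log2 scale, and 0 of 100 were called, where 0.575% of all tested genes were. The largest estimate in size was 0.25 with DESeq2 and 0.27 without the 3 shallow libraries. In the latter fit 21 members had an unadjusted p under 0.05 in edgeR's test. With all libraries in the edgeR fit, 5 members had an unadjusted p under 0.05. The largest bound was 0.36, a 1.29-fold difference, and the median bound 0.196, against 0.350 for the other genes and 0.495 for all genes tested. NVE22534 had the highest estimate, 0.21 (95% interval 0.08 to 0.33): its lowest, median and highest values were 210.3, 273.2 and 368.5 CPM in LD, against 178.3, 238.4 and 287.3 CPM in DD. NVE17154 had the lowest, -0.20 (interval -0.36 to -0.05), at 842, 1031 and 1259 CPM in LD, against 972, 1231 and 1416 CPM in DD. The arms overlapped in both genes. Neither passed edgeR's test, with adjusted p of 0.162 and 0.376. With DESeq2 NVE22534 was the 1 member called, with an adjusted p of 0.0455, and it also passed edgeR's test with libraries scaled by their totals alone (0.0409), while NVE17154 did without the 3 shallow libraries (0.013).

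After the cycle had been taken away, over T7 to T17, the estimated arm difference was at most 0.21 in any member. Called were 4 of 100 members, all lower in LD, beside 8.42% of all tested genes. The largest bound was 0.32, a 1.25-fold difference, and the median bound 0.161, against 0.295 for the other genes and 0.404 for all genes tested. NVE15896 had the lowest estimate, -0.21 (95% interval -0.32 to -0.09, adjusted p = 0.012 in edgeR's quasi-likelihood test), at 333, 491 and 722 CPM (lowest, median and highest of 43 LD libraries), against 408, 545 and 696 CPM in 44 DD libraries. Its ranges overlap, with means of 487 ± 74.1 CPM in LD and 541 ± 75.2 CPM in DD (SD). NVE9896 had 828 ± 137.2 CPM in LD and 896 ± 142.6 CPM in DD, an estimate of -0.18 with an adjusted p of 0.0408. NVE17337 had 384 ± 66.1 CPM in LD and 415 ± 71.0 CPM in DD, with -0.16 and 0.0365. NVE12208 had 275.7 ± 52.0 CPM in LD and 299 ± 42.8 CPM in DD, with -0.16 and 0.0479. The highest estimate was that of NVE13964, 0.12 (interval 0.03 to 0.21), which was not called; its median was 283 CPM in LD, with an SD of 43.4, and 257.1 CPM in DD, with an SD of 32.0.

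The 4 calls were lost in several fits of fewer libraries, while the estimates of the 4 genes stayed below 0. Without the 22 libraries in which NVE12125 exceeded 100 CPM, 0 of 100 members were called and the 4 estimates lay between -0.05 and -0.09. Without LD T8 replicates A and B and DD T13 replicate C 0 were called too, with estimates between -0.14 and -0.18. Within lane 5 (T7 to T12) and within lane 7 (T13 to T17) 0 were called in each, with estimates for NVE15896 of -0.22 and -0.20. Which members were called depended on the scaling. DESeq2 called 7 members, 6 of them higher in LD and NVE15896 lower, edgeR with DESeq2's size factors called 5, of which 4 were higher, and edgeR with libraries scaled by their totals alone called NVE13964 as higher and NVE15896 as lower. Of the 10257 tested genes these fits called 1089, 1012 and 910, in that order. The median estimate over the members was -0.05 with TMM factors, 0.02 with DESeq2's size factors and 0.0020 with totals alone, and that over all tested genes 0.01, 0.07 and 0.05 in the same order. All 4 genes kept their direction in each of these: NVE15896 was at -0.14 in DESeq2, NVE9896 at -0.10, NVE17337 at -0.09 and NVE12208 at -0.10.

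Removal of the cycle was also read as how much more a gene changed in LD than it did in DD. In the first cycle after removal, T7 to T12 less T1 to T6, 0 of 100 members were called, where 0.0877% of all tested genes were, and 2 members had an unadjusted p under 0.05. Estimates ran from -0.26 to 0.19, the median bound was 0.283, against 0.498 for the other genes and 0.711 for all genes tested, and the largest bound 0.46, a 1.38-fold change. NVE24814 had the lowest estimate, -0.26 (interval -0.46 to -0.06, adjusted p = 0.409): it averaged 307 ± 48.1 CPM over T7 to T12 and 355 ± 58.8 CPM over T1 to T6 in LD (SD, n = 24 each), and 332 ± 48.1 CPM (n = 24) and 323 ± 31.9 CPM (n = 22) over the same periods in DD. NVE23052 had the highest, 0.19 (interval -0.01 to 0.39), with 438 ± 77.0 CPM after and 432 ± 57.7 CPM before in LD, and 404 ± 48.9 CPM after and 463 ± 47.0 CPM before in DD. Neither gene passed edgeR's test.

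On the second day after removal, T13 to T17 less T1 to T5, the members were bounded least tightly. Called were 0 of 100, where 0.156% of all tested genes were, and 7 members had an unadjusted p under 0.05. The median bound was 0.304, against 0.546 for the other genes and 0.769 for all genes tested, and the largest 0.52, a 1.43-fold change. NVE20113 had the lowest estimate, -0.29 (interval -0.52 to -0.06, adjusted p = 0.468 in edgeR's test), with 560 ± 68.6 CPM in LD and 622 ± 134 CPM in DD over T13 to T17, where its highest DD library reached 1051 CPM. NVE14946 had the highest, 0.25 (interval 0.03 to 0.46), with 145.1 ± 18.1 CPM in LD and 127.2 ± 22.2 CPM in DD over T13 to T17. DESeq2 called 0 members in both removal contrasts.

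The 24 h component is a cosine fitted to the group means, with its amplitude the log2 distance from the mean to the peak and its peak in hours after T1; the clock time of T1 is not given. In LD before removal the amplitudes of the members reached 0.28, with a median of 0.10, and in DD over the same day 0.20, with a median of 0.07; the medians over all tested genes were 0.23 in LD and 0.20 in DD. No member was called in either arm, where 0.136% of all tested genes were in LD and 0% in DD; 7 members in LD and 2 in DD had an unadjusted p under 0.05. DESeq2 called 1 member in LD, NVE22600 (adjusted p = 0.048), and 0 in DD. The largest bounds were 0.46 in LD and 0.43 in DD. NVE22600 had the largest amplitude in LD, 0.28 ± 0.07 (SE, adjusted p = 0.124 in edgeR's test), with 133.2, 144.8, 173.3 and 172.5 CPM in the 4 replicates at T5 and 75.8, 129.5, 97.8 and 125.8 CPM at T3. All 4 values at T5 were above all 4 at T3, a description, since NVE22600 was named for the largest amplitude. NVE25377 had the largest amplitude in DD, 0.20 ± 0.08, with 136 ± 22.1 CPM at T3 (n = 4) and 94.1 ± 13.5 CPM at T1 (n = 3).

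After removal, a 24 h component was the most frequent directed call among the members: 19 of 100 had a 24 h component over T7 to T17 in LD, beside 8.75% of all tested genes, and 0 of 100 had in DD, beside 0.0682%. At an unadjusted p under 0.05 there were 43 members in LD and 16 in DD. In DD, DESeq2 called 7 members, and edgeR called 3 with DESeq2's size factors, 2 with totals alone and 3 without the 3 shallow libraries. Over all tested genes these fits called 40, 19 and 8 of 10257 and 18 of 10648, in that order. Amplitudes of the 19 ran from 0.16 to 0.29, with a median of 0.22, and in DD the same genes had amplitudes with a median of 0.13 and up to 0.20. Whether the amplitude differed between the arms was not tested. The fitted peaks of 18 of the 19 fell between 12 and 16 h after T1, and that of NVE20113 at 17.3 h. On the TMM scale the median deviation of all members was 0.12, 0.18, 0.20 and 0.04 in LD T10 replicates A to D. In LD T8 it was -0.30, -0.39, 0.05 and 0.15. Over the kept libraries this median had an SD of 0.109, against 0.075 on library totals. The 19 genes share this scaling, and its part in their common peak was not tested. The largest bounds over the members were 0.43 in LD and 0.37 in DD.

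NVE17752 had the largest amplitude, 0.29 ± 0.06 (SE) with a peak at 14.3 h and an adjusted p of 0.00151 in edgeR's test. At T11 its 4 LD replicates had 1801, 1237, 1165 and 1399 CPM and its 4 DD replicates 1311, 1248, 1309.5 and 1323 CPM. At T8 they had 823, 569.9, 1035 and 1147 CPM in LD and 1093, 1075, 938 and 969 CPM in DD. In both arms all values at T11 lay above all values at T8, with the widest scatter in LD. NVE17752 was named for its LD amplitude, so its LD values are a description. Its DD amplitude was 0.20 with a peak at 15.0 h. NVE21507 followed in LD with 0.29 ± 0.05 and a peak at 14.2 h (adjusted p = 0.000132), at 2711, 2062, 1743 and 2207 CPM at T11 and 1322, 1164, 1514 and 1709 CPM at T8. NVE11279, the gene of lowest spread, was among the 19 with 0.17 ± 0.05 (adjusted p = 0.0296), at 1818 ± 75 CPM at T11 and 1463 ± 277.1 CPM at T8 in LD. The largest DD amplitude was that of NVE22984, 0.21 ± 0.06 with a peak at 22.3 h (adjusted p = 0.289): 153.6, 198.6, 150.7 and 223.7 CPM at T14, and 116.6, 112.1, 113.5 and 120.4 CPM at T9.

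**Figure D5:**
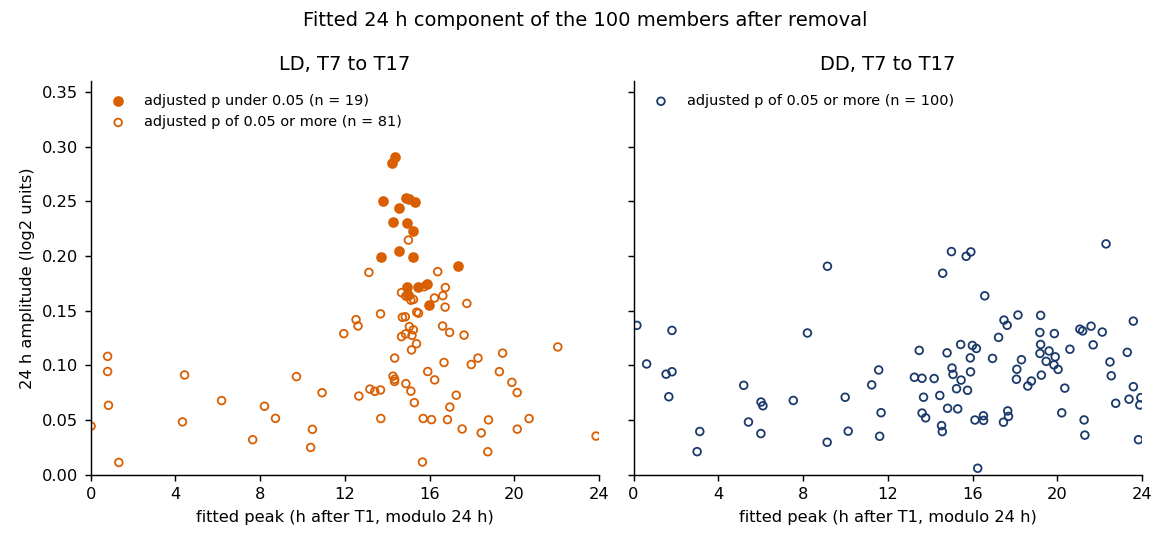
Fitted 24 h amplitude (y, log2 units) against fitted peak (x, hours after T1) of the 100 members over T7 to T17 in LD (left) and DD (right); filled points passed an adjusted p of 0.05 in the edgeR fit. The 19 filled points of LD have amplitudes of 0.16 to 0.29 and all but 1 peak between 12 and 16 h; the points of DD reach 0.21.

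The count of 19 changed with the libraries left out and with the scaling. Without LD T8 replicates A and B and DD T13 replicate C, the libraries in which the members were low, 2 members were called, and without the libraries in which NVE12125 exceeded 100 CPM 0 were, with the amplitude of NVE17752 at 0.24 and 0.21 in those fits. Over all tested genes the calls fell as well, from 898 of 10257 to 14 of 11171 and 2 of 11629. Without replicate A of every group 0 members were called, and without B, C or D 12, 11 and 11. All tested genes then held 2 calls of 10393 without A and 363 of 10231 without B. They held 785 of 10325 without C and 427 of 10467 without D. DESeq2 called 12 members, 6 of them among the 19, and put the amplitude of NVE17752 at 0.16. edgeR with DESeq2's size factors called 11, 5 of them among the 19, and with totals alone 13, 10 of them among the 19. Of the 10257 tested genes, DESeq2 called 1269, edgeR with DESeq2's size factors 1653 and edgeR with totals alone 1251. With a linear trend in the fit 6 members were called, beside 103 of the 10257 tested genes. Over T7 to T12 alone, all on lane 5, 23 members were called, 12 of them among the 19, from a single cycle, beside 1437 of the 10257 tested genes.

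Any difference among the 34 groups was called in 21 of the 100 members, beside 20.0% of all tested genes. Of the 21, 9 belong to the set of 13 genes that varied together, and 12 to the 19 with a 24 h component in LD after removal. NVE21507 had the widest span of group means, 0.90 on the log2 scale, and held the smallest part of its sum of squares within groups, 25.5%. Its 4 replicates at DD T17, the group of highest mean CPM, had 2802, 2683, 2180 and 2689 CPM, and those at LD T7, the group of lowest mean CPM, 1222, 1529, 1342 and 1456 CPM. Every value of that DD group lay above every value of the LD group, a description, since these groups were picked as the gene's extremes. The lane shift of this gene, given above, moves with that span, and its part was not tested. The count was 47 with DESeq2, beside 2618 of 10257 tested genes, and 41 without the 3 shallow libraries, beside 2200 of 10648. It was 12 without the libraries in which NVE12125 exceeded 100 CPM, beside 607 of 11629. In none of the 9 tests was a call made for 68 of the 100 members, and in none of the 8 tests of a level or a 24 h component for 77.

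Bounds were measured in libraries that did not choose as well. For the 100 genes chosen in replicates A and B, a fit of replicates C and D alone, with fewer libraries and so wider intervals, gave median bounds of 0.288 for the first-day arm difference, 0.231 for that after removal, 0.409 and 0.443 for the removal effects, and 0.291 and 0.316 for the 24 h amplitude after removal in LD and DD. Over all genes tested in that fit the medians were 0.755, 0.601, 1.08, 1.18, 0.765 and 0.785. Those genes include many under the limit of 100 CPM, and medians of the other genes the rule could choose were not taken there. In the fit of all libraries the first-day arm medians were 0.350 for such other genes and 0.495 for all tested genes. All 8 bounds were under 1 on the log2 scale for 100 of 100 genes. For the genes chosen in C and D and fitted in A and B, the median bounds were 0.296 and 0.202 for the arm differences and 0.349 and 0.432 for the removal effects, and each of the 8 bounds was under 1 in 100 genes. In the fit of all libraries, each bound taken alone was under 1 in 70.4 to 90.7% of all tested genes. The corresponding share in the smaller fits was not counted.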

How the data were processed

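RNA of 136 whole-animal libraries was analysed, 68 per arm, as grouped by arm and time point in the labels (34 groups). Per the labels, the Ambion RNAqueous kit gave RNA from animals kept in RNAlater, libraries followed Meyer et al., and reads were mapped to the genome of Putnam et al. The submitters' processing notes name Bowtie2 with no version. Gene models, counting tool and strand setting were not given in the sources used here, so members with near-identical or overlapping genes are uncertain. The authors deposited whole-number counts per gene, not normalized, for 24384 genes; columns were matched to samples by title.

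CPM were computed on column totals, and the members were chosen on log2(CPM + 2) over the libraries left after the rule's limit on totals. The members and lists were chosen with earlier results of these data known. Named are the 6 members of lowest SD, the 2 just inside and outside the limit, the members with the highest and lowest estimate of each level contrast or the largest 24 h amplitude, those with the largest and smallest share of counting error, those with the most or largest departures of single libraries and the genes of any count of 5 or fewer. The last of these, and other identifiers such as NVE12125 and those of correlated sets, were chosen after their values were seen.

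Tests used edgeR 4.0.16 in R 4.3.3: filterByExpr over the 34 groups (10257 genes kept), TMM factors, 34 group means, a trended dispersion, glmQLFit and glmQLFTest, with Benjamini-Hochberg adjustment over all tested genes. Arm differences set LD minus DD, averaged over the first day (T1 to T6) or the time points after removal, and removal effects set the change of LD over time minus that of DD. The 24 h component is the least-squares cosine and sine pair, tested jointly, with an SE taken from the amplitude and the joint F statistic. Bounds are the outer end of the 95% interval, or for an amplitude of the joint 95% region. The fit was checked on simulated counts with known effects. Alternatives were DESeq2 1.42.0 (Wald tests, likelihood ratio tests for 24 h), its size factors, totals alone as the scale, a filter of no more than 1 count, leaving out the 3 shallow libraries or each replicate letter, the letter as a block, a linear trend and T7 counted before removal. Chosen after seeing the data were fits of T7 to T12 or T13 to T17 alone, without the 3 libraries low in the members, and without the 22 libraries in which NVE12125 exceeded 100 CPM. Depth ranged from 2185 to 749294 counts per library. Over the kept libraries this leaves the median member with a counting error of 0.103 on the log2 scale. In the shallow DD T4 replicate B and LD T14 replicate D, which the fits also used, it was 1.55 and 0.436.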

Additional observations from a re-analysis of the deposited data

Results flagged for a closer look

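Among the 31 groups of 4 libraries, the members' summed share of counts had 1 library far from the other 3 in 2 groups; chance alone sets a library apart in about 1 in 20 groups. In DD T13 replicate C took 5.85%, against 6.84 to 6.89% in replicates A, B and D. In LD T12 replicate C took 6.98%, against 7.21 to 7.23% in replicates A, B and D.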

How the results depend on the processing

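No named member changed direction under any alternative, while over all alternatives 47 of their repeated tests lost a call and 8 gained one. DESeq2 called 1 member in the first-day arm difference, 7 in that after removal, 1, 12 and 7 in the 24 h components of LD first day, LD after and DD after removal, and 47 in any difference. Of the 10257 tested genes it called 91, 1089, 14, 1269, 40 and 2618 in the same order. DESeq2's size factors gave 11 and 3 in LD and DD after removal. Library size alone gave 1 and 2 in the arm differences and 2 in DD after removal. No filter beyond 1 count gave 1 in the arm difference after removal, 7 in LD after removal and 11 in any difference, beside 602, 650 and 1740 of 24384 tested genes. Leaving out the 3 shallow libraries gave 1 in the first-day arm difference, 3 in DD after removal and 41 in any difference, beside 61, 18 and 2200 of 10648 tested genes. A linear trend gave 6 in LD after removal and median bounds of 0.339 and 0.375 for the first-day components of LD and DD. With T7 before removal the arm difference after it held 1. T7 to T12 or T13 to T17 alone gave 0 in the arm difference, with median bounds of 0.208 and 0.213, and T7 to T12 bounds of 0.324 and 0.301 for the components of LD and DD. Without the 3 libraries low in the members calls were 0 (arm after removal), 2 (LD) and 1 (DD after removal); without those high in NVE12125 they were 0, 0 and 1, and 12 for any difference. Leaving out each replicate letter gave 0 to 2 calls in the arm difference after removal, 0 to 12 in LD after removal and 7 to 15 in any difference. The median bounds were then 0.227 to 0.245 and 0.167 to 0.199 (arm), 0.309 to 0.363 and 0.333 to 0.388 (removal), and 0.303 to 0.355, 0.312 to 0.318, 0.266 to 0.301 and 0.236 to 0.282 (24 h, LD and DD first day, LD and DD after). The cause of these changes was not tested. Letters shared by LD and DD showed no strong pairing of the samples: over 65 pairs the correlation of deviations had a median of 0.02 (-0.27 to 0.45). It exceeded 0.1 in 16 pairs, and 22 correlated best with their own letter. The count to be met without pairing was not computed, so a weak pairing is not excluded. The replicate block gave 4 calls in the arm difference after removal, 17 in LD after removal, 19 in any difference and 0 elsewhere. Of the 100 members, 50 stayed when the 100 most abundant genes could be chosen, 45 over all 136 libraries and 72 to 99 under the other settings, letters left out included. At the median member counting alone gives an SD of 0.103 over the kept libraries, where the median SD within groups was 0.213. The part of depth in the bounds was not tested.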
